A study of Mus musculus with 8 samples.

Results

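Genes that build cholesterol and fatty acids were followed in mouse AtT-20 cells, a corticotrope tumour line that makes the ACTH precursor Pomc. The gene set was a list of 35 symbols, chosen with earlier results of these data known. It held 19 enzymes that lead from acetyl-CoA to cholesterol (the sterol branch), 10 fatty acid enzymes and 6 regulators or carriers of the sterol-sensing system. Counts of its genes set beside the share of all genes are therefore no independent test of the list. Members were the rows of the deposited tables that carry a listed symbol, and each symbol had at most 1 row. Of the 35, 34 had a row among 12193 gene loci, and all 34 passed the filter on low values; Mvd, a mevalonate pathway enzyme, is not analysed here.

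The series asks how the EGF receptor and its ligand act on transcription in these cells. A Neo control line and a line carrying EGFR, with no EGF in either case, were sampled after water labelled 3 h. The EGFR line was also sampled with EGF at 3 h and at 18 h, and each of the 4 groups had n = 2 libraries. All groups were grown in the same serum-containing medium. Where single libraries are named, the number is the replicate number, as in Neo 1, water 2 (of the EGFR line) or 18 h EGF 1. Where groups are said not to overlap, the share of all genes without overlap was not counted. With n = 2 libraries in each group, such separation can easily arise by chance.

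The labels do not say whether either line is 1 clone or a pool, which promoter drives the receptor, or from which species it was taken. No Neo library with EGF and no water library at 18 h is analysed here, so EGF cannot be told apart from the longer time at 18 h, and any other difference between the lines cannot be told apart from the receptor. The labels do not say that libraries of a group came from separate cultures, so the p-values measure only how far libraries of a group differ, and that spread may be technical. In such bulk RNA, a change in the share of cells that express a gene and a change in its RNA per cell cannot be told apart.

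The sterol branch joins acetyl-CoA units into mevalonate, turns mevalonate into isoprenoid units and farnesyl diphosphate, closes squalene into a sterol ring and trims that ring to cholesterol. Its genes, and many fatty acid genes, are transcriptional targets of the SREBP factors, which Srebf1 and Srebf2 encode. When sterols are plentiful, the Insig proteins hold Scap, the escort of SREBP, in the endoplasmic reticulum. When sterols run low, Scap takes SREBP to the Golgi, where proteases release the active factor. Fatty acid synthesis draws on the same cytosolic acetyl-CoA, and SREBP-1 is known mainly for the fatty acid genes and SREBP-2 for the sterol genes.

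The stretches before the start of 6 genes are printed as examples of genes that rose at 3 h of EGF and were lower at 18 h than at 3 h. Idi1, Sqle, Cyp51, Msmo1, Nsdhl, Elovl6 and Elovl5 had the same pattern and are not printed. They come from RefSeq promoters on GRCm38.p6, the assembly that mm10 names, and run 5′ to 3′ on the strand of the gene. Each is cut where it meets an exon annotated in GENCODE M21. Capitals mark a sterol response element, searched as TCACNCCAC, and CCAAT boxes, which read ATTGG on the other strand. Hmgcs1 at chr13:119690101-119690350 (plus strand) holds the element and CCAAT boxes. The other stretches are Lss at chr10:76531355-76531587 (plus strand), Hsd17b7 at chr1:169969242-169969408 (minus strand), Sc5d at chr9:42264301-42264550 (minus strand), Insig1 at chr5:28071162-28071362 (plus strand) and Fasn at chr11:120824548-120824797 (minus strand). In Fasn, a CCAAT and an ATTGG overlap.
Hmgcs1: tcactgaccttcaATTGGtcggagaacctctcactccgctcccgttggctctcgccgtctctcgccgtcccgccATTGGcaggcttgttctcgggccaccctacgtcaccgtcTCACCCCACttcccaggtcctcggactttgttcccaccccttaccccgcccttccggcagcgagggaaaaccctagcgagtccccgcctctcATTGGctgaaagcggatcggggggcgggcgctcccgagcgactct
Lss: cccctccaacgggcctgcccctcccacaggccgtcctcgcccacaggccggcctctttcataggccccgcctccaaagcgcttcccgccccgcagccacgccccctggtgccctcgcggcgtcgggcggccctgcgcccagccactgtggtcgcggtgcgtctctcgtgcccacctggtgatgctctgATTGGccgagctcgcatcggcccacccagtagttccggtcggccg
Hsd17b7: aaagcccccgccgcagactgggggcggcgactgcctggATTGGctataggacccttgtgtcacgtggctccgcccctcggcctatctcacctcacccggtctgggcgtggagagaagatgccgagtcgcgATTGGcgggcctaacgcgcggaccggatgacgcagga
Sc5d: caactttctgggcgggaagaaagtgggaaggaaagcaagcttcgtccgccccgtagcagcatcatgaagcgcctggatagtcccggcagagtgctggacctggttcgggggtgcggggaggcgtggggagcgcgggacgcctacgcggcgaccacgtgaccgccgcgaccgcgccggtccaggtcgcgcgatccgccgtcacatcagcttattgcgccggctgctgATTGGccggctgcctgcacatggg
Insig1: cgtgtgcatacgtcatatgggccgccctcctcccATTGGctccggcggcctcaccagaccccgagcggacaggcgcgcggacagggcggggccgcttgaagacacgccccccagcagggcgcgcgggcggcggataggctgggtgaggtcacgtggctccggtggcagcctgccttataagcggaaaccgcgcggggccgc
Fasn: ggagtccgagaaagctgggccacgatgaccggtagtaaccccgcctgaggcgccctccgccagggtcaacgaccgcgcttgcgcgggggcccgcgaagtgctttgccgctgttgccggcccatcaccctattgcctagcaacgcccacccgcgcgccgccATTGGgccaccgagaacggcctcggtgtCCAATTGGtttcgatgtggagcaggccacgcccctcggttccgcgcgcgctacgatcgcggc

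RefSeq gave 300-base promoters, from 250 bases before to 50 after a start, for 26 of the 34 members, and some genes had more than 1. Motifs were searched on both strands, and the GC box was searched as GGGCGG. The sterol response element was found in 1 of 17 sterol branch promoters (5.88%), that of Hmgcs1, and in 408 of 32851 promoters of all genes (1.24%). CCAAT boxes were in 13 of 17 sterol branch promoters (76.5%), in 4 of 7 fatty acid promoters (57.1%), in 5 of 10 regulator promoters and in 37.4% of all promoters. GC boxes were in 14 of 17 sterol branch promoters (82.4%), in 3 of 7 fatty acid promoters (42.9%), in 8 of 10 regulator promoters and in 35.7% of all. The promoters of Elovl6 and Acaca held none of these motifs. All of these counts are matches of letters within the windows, not measured binding sites.

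Egfr checked the labels: its FPKM (fragments scaled by gene length and by the total of the library) was 0.227 and 0.0663 in Neo, 25.9 and 27.5 in EGFR water, 28.8 and 30.6 at 3 h and 31.9 and 30.3 at 18 h. Corticotrope markers had rows for 5 of 6 genes, with Pomc at 6981 to 8930 FPKM, whereas other pituitary, fibroblast, endothelial and blood lists had rows for none of their 7, 5, 3 and 3 genes. Of 4 adipocyte and hepatocyte markers, only Apoa1 had a row, at 0.0618 to 0.168 FPKM in the first 3 groups and at 0.648 and 0.803 at 18 h; its part in the 18 h results was not tested. FPKM sums per library ran from 683834 to 808072 and medians from 14.3 to 14.7. Small RNA genes made up 29.1 to 39.0% of the sum, most in Neo 1, where Rn7sk alone was 60705 FPKM against 0 in the other 7 libraries. Low FPKM values did not fall on whole reads, so the depth of each library is unknown.

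As a sum over its 18 genes, the sterol branch stood at 1038 and 1049 FPKM in Neo and at 1378 and 1367 in EGFR water. It was at 1479 and 1521 at 3 h of EGF and at 1208 and 1222 at 18 h. No 2 groups overlapped in this sum, and the order was Neo, 18 h, water, 3 h. The 10 fatty acid genes summed to 726 and 701 FPKM in Neo, 735 and 725 in EGFR water, 793 and 815 at 3 h and 815 and 810.1 at 18 h. Here all 4 EGF libraries lay above all water libraries, and the water and Neo libraries overlapped. All 18 sterol branch genes had their lowest group mean in Neo, as did 7 of 10 fatty acid genes and 2 of 6 regulators. The group means of Dhcr7 were 18.9 FPKM in Neo and 19.6 to 19.8 in the other groups, each of which overlapped Neo. For 15 of 18 sterol branch genes, 1 of 10 fatty acid genes (Scd2) and 2 of 6 regulators, the 18 h mean lay between the Neo and EGFR water means. The shares of all genes tested with these 2 patterns were not counted.

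**Figure D1:**
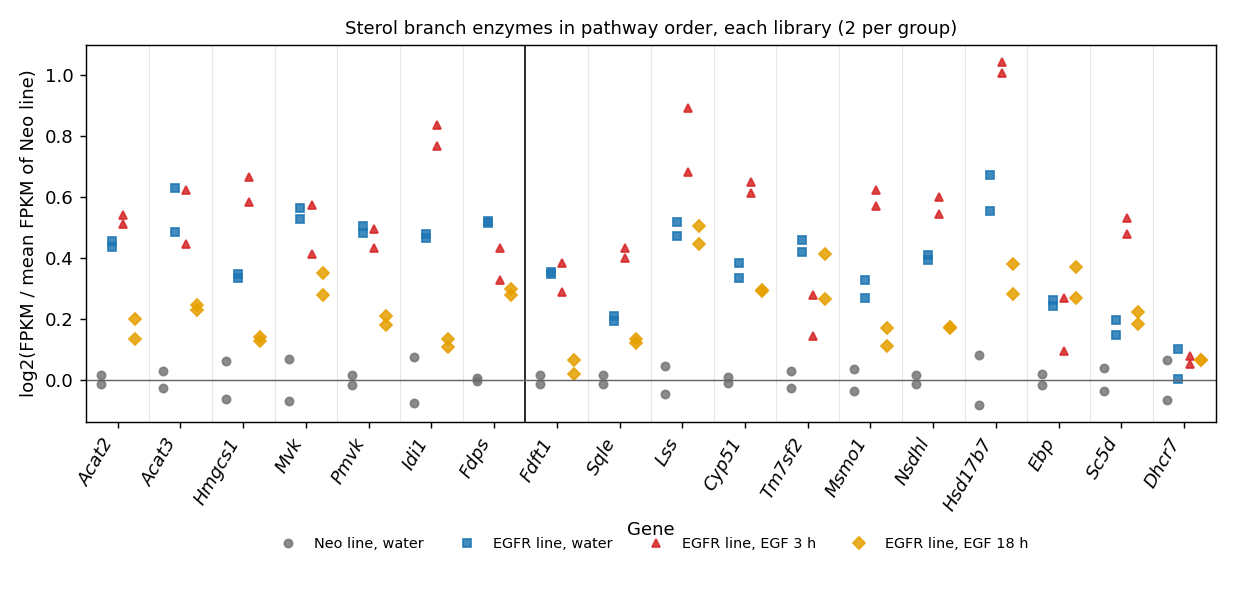
Sterol branch enzymes in pathway order (x axis; the vertical line follows Fdps) and the FPKM of each library against the mean of the 2 Neo libraries (y axis, log2 scale); grey circles are Neo water, blue squares EGFR water, red triangles EGF 3 h and yellow diamonds EGF 18 h. The squares lie above the circles for most genes, with overlap for Dhcr7; the share of all genes without such overlap was not counted. The diamonds lie below the triangles for most genes. Diamonds and triangles overlap for Dhcr7 and Tm7sf2, and for Ebp the diamonds lie higher.

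In water, the EGFR line carried more RNA of the sterol branch than the Neo line. Of 18 genes, 15 were higher and none lower by limma at an adjusted p below 0.05, beside 338 higher genes (3.11%) and 315 lower genes (2.9%) among the 10874 tested; at an unadjusted p below 0.05, 17 were higher and 0 lower. Their log2 fold change on the scale of log2(FPKM + 1), used for every fold change here, had a median of 0.38, beside 0.01 for all genes tested. All 7 enzymes from acetyl-CoA to farnesyl diphosphate were higher, with a median of 0.49, and 8 of the 11 enzymes from squalene to cholesterol, with a median of 0.34. This split at farnesyl diphosphate was chosen after values had been seen.

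Acat2 and Acat3, thiolases that join acetyl-CoA units, open the pathway. Acat2 was at 25.7 and 25.2 FPKM in Neo and 34.9 and 34.4 in EGFR water. Acat3 was at 7.40 and 7.69 against 11.7 and 10.6. Hmgcs1, which makes HMG-CoA, was at 91.7 and 100.1 in Neo and 122 and 121 in EGFR water, a log2 fold change of 0.34 (SE 0.048, adjusted p = 0.013). None of these groups overlapped, and the Neo libraries were the lower ones each time.

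The kinases, the isomerase and the synthase that follow were also higher. Mvk, mevalonate kinase, was at 22.2 and 20.2 FPKM in Neo and 31.3 and 30.6 in EGFR water. Pmvk, phosphomevalonate kinase, was at 67.5 and 69.1 against 96.9 and 95.4, a log2 fold change of 0.49 (SE 0.034, adjusted p = 0.00052). Idi1 (chr13:8885501-8892451), which interconverts the isoprenoid units, was at 56.7 and 63.0 against 82.5 and 83.4. Fdps (chr3:89093588-89101959), farnesyl diphosphate synthase and the most abundant sterol enzyme per length, was at 246 and 248 in Neo and 354 and 353 in EGFR water. Its log2 fold change was 0.52 (SE 0.040, adjusted p = 0.00086), and its groups did not overlap.

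Past farnesyl diphosphate, Hsd17b7, a ketosteroid reductase of sterol demethylation, had the largest difference, at 11.8 and 10.5 FPKM in Neo and 16.4 and 17.8 in EGFR water (log2 fold change 0.57, SE 0.063, adjusted p = 0.0047). Lss, lanosterol synthase, was at 52.1 and 48.9 against 72.2 and 70.0, and Cyp51, the lanosterol demethylase, at 96.6 and 97.9 against 123 and 127. Both were higher in the EGFR line. Fdft1, squalene synthase, rose from 31.4 and 30.7 to 39.5 and 39.7 FPKM, and Sqle, squalene epoxidase, from 108 and 106 to 124 and 122. Tm7sf2, Msmo1 and Nsdhl, a reductase, an oxidase and a dehydrogenase of ring trimming, had log2 fold changes of 0.38, 0.30 and 0.38.

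The sterol genes that were not called belong to the last steps. Ebp, a sterol isomerase, was at 23.9 and 23.3 FPKM in Neo and 28.0 and 28.3 in EGFR water and did not pass the test (adjusted p = 0.059). Sc5d, a sterol desaturase, was at 33.3 and 31.6 against 37.2 and 35.9 (adjusted p = 0.055). Neither gene's groups overlapped, but the share of all genes without overlap was not counted. Ebp passed as higher under median-ratio, common-sum, coding-sum and quantile scaling, and Sc5d under all of these but quantile. Dhcr7, a terminal reductase, was at 19.8 and 18.0 in Neo and 20.3 and 18.9 in EGFR water. Its groups overlapped, and its log2 fold change had a 95% interval of -0.07 to 0.17.

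Between the lines 2 of 10 fatty acid genes were higher, with a median log2 fold change of 0.05 over the 10, and 1 of 6 regulators, with a median of -0.04. The shares of all genes tested were 3.11% higher and 2.9% lower. Elovl6, which lengthens palmitate, was at 14.1 and 13.7 FPKM in Neo and 17.7 and 17.2 in EGFR water (log2 fold change 0.31, adjusted p = 0.013). Acss2, which makes acetyl-CoA from acetate, was at 11.7 and 11.8 against 14.4 and 13.4. The regulator was Insig1, at 146 and 145 against 173 and 167 (log2 fold change 0.22, adjusted p = 0.016). The SREBP genes themselves did not pass the test: Srebf1 was at 50.1 and 51.2 in Neo and 47.5 and 47.9 in EGFR water, and Srebf2 at 20.3 and 18.7 against 18.2 and 19.3.

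The line comparison rests on few libraries. The 15 sterol genes became 9 without Neo 1, 7 without water 1 and 9 without water 2; without Neo 1, Neo 2, water 1 or water 2 in turn, 0 fatty acid genes and 0 regulators were called. With every library brought to the same FPKM sum over all loci, 309 genes were higher and 103 lower, against 338 and 315, and 17 of 18 sterol genes were higher.

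After 3 h of EGF, part of the sterol branch rose from the level of EGFR water. Of 18 genes, 9 rose and 2 fell by limma, beside 1283 genes higher (11.8%) and 2142 lower (19.7%) of all tested. The median log2 fold change was 0.12, beside -0.04 for all genes. The split at farnesyl diphosphate was chosen after values had been seen. From squalene to cholesterol 7 of 11 rose and 1 fell, with a median of 0.21. Up to farnesyl diphosphate 2 of 7 rose and 1 fell, with a median of -0.02.

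Hsd17b7 again led, at 23.0 and 22.5 FPKM at 3 h against 16.4 and 17.8 in water (log2 fold change 0.39, SE 0.063, adjusted p = 0.0048). Idi1 was at 107 and 102 against 82.5 and 83.4, a log2 fold change of 0.33 (SE 0.051, adjusted p = 0.0044). Sc5d, which had not passed between the lines, was at 45.2 and 46.9 against 37.2 and 35.9 (log2 fold change 0.33, adjusted p = 0.0016). In all 3 genes, both EGF libraries lay above both water libraries.

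Hmgcs1 went from 122 and 121 FPKM in water to 152 and 144 at 3 h, a mean 21.9% higher. Cyp51 went from 123 and 127 to 149 and 153, Msmo1, the methylsterol oxidase, from 155 and 149 to 191 and 184, and Sqle from 124 and 122 to 141 and 145. These 4 rose by similar steps, with log2 fold changes between 0.21 and 0.30. Lss, at 81.0 and 93.8 at 3 h, was the least even pair of the risers (log2 fold change 0.29, SE 0.068). Nsdhl rose least among the 9, from 22.4 and 22.6 to 24.9 and 25.8.

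Several early enzymes did not pass at 3 h. Pmvk was at 92.1 and 96.3 FPKM against 96.9 and 95.4 in water, Mvk at 28.2 and 31.5 against 31.3 and 30.6, and Acat3 at 10.3 and 11.6 against 11.7 and 10.6. In each of the 3 the EGF and water libraries overlapped, and their 95% intervals of the log2 fold change were -0.11 to 0.05, -0.20 to 0.10 and -0.17 to 0.13. Fdps fell from 354 and 353 to 310.1 and 333 (log2 fold change -0.14, adjusted p = 0.038). Tm7sf2, one of the sterol reductases and the sterol gene with the lowest FPKM, fell from 7.23 and 7.41 to 5.96 and 6.54 (log2 fold change -0.20, adjusted p = 0.044). Both calls ended under each of the 4 other scalings, with adjusted p-values of 0.051 to 0.63 for Fdps and 0.069 to 0.30 for Tm7sf2, while both changes stayed negative.

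Of the fatty acid genes, 5 of 10 rose at 3 h, beside 11.8% of all genes tested, and the median log2 fold change was 0.14. Fasn (chr11:120805846-120824547), fatty acid synthase, was at 77.3 and 76.3 FPKM in water and 92.1 and 96.3 at 3 h (log2 fold change 0.29, SE 0.033, adjusted p = 0.0012). Elovl6 was at 17.7 and 17.2 in water and 22.3 and 20.7 at 3 h, and Elovl5, an elongase of polyunsaturated chains, at 42.7 and 42.9 against 49.4 and 49.0. For these genes no EGF library fell within the water range. Fads2, a desaturase of polyunsaturated chains, and Scd1, a desaturase of saturated chains, had log2 fold changes of 0.22 and 0.17. Scd2, the more abundant of the Scd genes here at 213 and 204 in water and 224 and 226 at 3 h, missed the threshold (adjusted p = 0.055). Acly and Acaca, which make cytosolic acetyl-CoA and malonyl-CoA, were at 138 and 144 and at 40.0 and 42.0 at 3 h against 139.7 and 139 and 38.5 and 38.8, with 95% intervals of -0.07 to 0.10 and -0.01 to 0.18 for the log2 fold change.

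Among the regulators 3 of 6 rose at 3 h, beside 11.8% of all genes tested. Stard4, a carrier that moves sterols between membranes, was at 30.3 and 31.5 FPKM in water and 38.9 and 40.4 at 3 h (log2 fold change 0.35, SE 0.044, adjusted p = 0.0019). Srebf2, which encodes SREBP-2, was at 18.2 and 19.3 against 22.4 and 22.1 (log2 fold change 0.24, adjusted p = 0.0105). Insig1 rose from 173 and 167 to 192 and 197. Srebf1 was at 48.8 and 53.1, Scap at 43.5 and 43.3 and Insig2 at 17.3 and 19.5, and none of these 3 passed the test.

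The 3 h counts moved with the water libraries and the scaling. The 11 sterol calls became 7 without water 1 or without water 2, and the 5 fatty acid calls became 3 without water 1. Over all genes, the split of 1283 higher and 2142 lower became 1781 and 1551 with median-ratio scaling, 1346 and 440 with a common FPKM sum and 2033 and 1265 with a common sum over protein-coding genes. Under these 3 scalings 10, 9 and 10 of 18 sterol genes and 8, 6 and 9 of 10 fatty acid genes were higher, and 0 of either were lower.

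**Figure D2:**
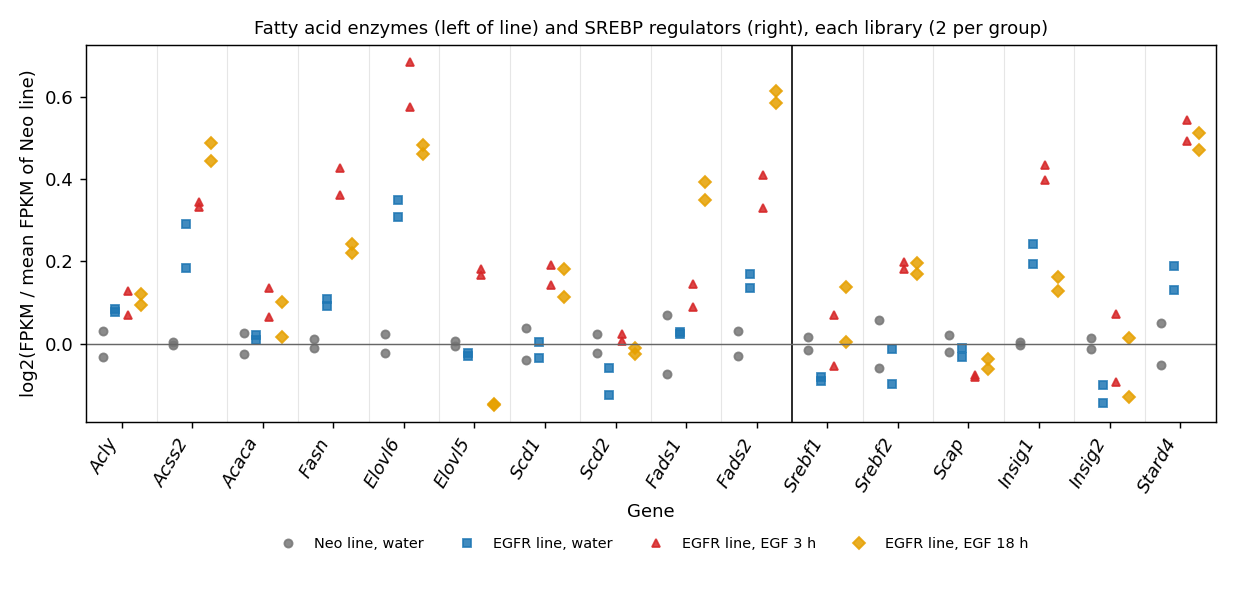
Fatty acid enzymes (left of the vertical line) and sterol-sensing regulators (right) on the x axis, and the FPKM of each library against the mean of the 2 Neo libraries on the y axis (log2 scale); symbols as for the sterol enzymes. Fads1, Fads2 and Acss2 have their highest libraries at 18 h of EGF, Fasn and Elovl6 at 3 h, and Stard4 is high at both times.

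By 18 h of EGF the sterol branch had dropped under the level of EGFR water. Of 18 genes, 11 were lower and none higher, beside 2030 lower genes (18.7%) and 1437 higher genes (13.2%) of all tested by limma; at an unadjusted p below 0.05, 12 were lower and 0 higher. The median log2 fold change was -0.21, beside -0.03 for all genes. All 7 enzymes up to farnesyl diphosphate were lower, with a median of -0.27, and 4 of 11 past it, with a median of -0.07. This split was chosen after values had been seen, so it is no independent contrast of early and late steps. With a common FPKM sum over all loci 3 of the 7 and 3 of the 11 were lower, and with a common sum over protein-coding genes 6 and 3. EGF at 3 h and at 18 h were set against the same water libraries, so an error in those libraries enters both comparisons.

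Idi1 fell most, to 64.5 and 65.7 FPKM at 18 h from 82.5 and 83.4 in water (log2 fold change -0.35, SE 0.051, adjusted p = 0.0026). Pmvk was at 77.3 and 79.0 against 96.9 and 95.4 (log2 fold change -0.30, SE 0.034, adjusted p = 0.00085). Fdft1, the enzyme that commits farnesyl diphosphate to sterols, was at 32.5 and 31.5 against 39.5 and 39.7 (log2 fold change -0.30, adjusted p = 0.0014). No library of the pairs overlapped in these genes. Acat2 was at 27.9 and 29.2, Acat3 at 8.84 and 8.95 and Fdps at 299.6 and 304, all lower than in water. Hmgcs1 was at 105 and 106, under its water values of 122 and 121.

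Past Fdft1 the picture was mixed. Nsdhl was at 19.2 and 19.2 FPKM against 22.4 and 22.6 in water, and Hsd17b7 at 13.6 and 14.5 against 16.4 and 17.8, both lower. Msmo1 was lower by a smaller step, 133 and 139 against 155 and 149 (adjusted p = 0.027). Lss was at 71.7 and 68.7 against 72.2 and 70.0, with overlapping libraries and a 95% interval of -0.18 to 0.14 for the log2 fold change. Sqle at 117 and 116 and Cyp51 at 119 and 119 lay under their water libraries without passing the test (adjusted p = 0.098 and 0.16).

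Fatty acid genes went the other way at 18 h, with 5 of 10 higher than in water, 1 lower and a median log2 fold change of 0.13. The shares of all genes tested were 13.2% higher and 18.7% lower. The desaturases of polyunsaturated chains stood out. Fads2 (chr19:10064164-10101503) was at 110.2 and 113 FPKM in water and 154 and 151 at 18 h (log2 fold change 0.45, SE 0.039, adjusted p = 0.00025). Fads1 (chr19:10182888-10196870), a later desaturase of that pathway, was at 63.0 and 62.7 against 81.0 and 78.7 (log2 fold change 0.34, SE 0.049, adjusted p = 0.0022). For both genes the 18 h libraries were the highest of all 8.

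Acss2 was at 16.0 and 16.5 FPKM at 18 h against 14.4 and 13.4 in water (log2 fold change 0.21, adjusted p = 0.0086). Fasn was at 84.8 and 83.5 and Scd1 at 20.5 and 19.6, with log2 fold changes of 0.13 and 0.16. These 3 rose, while Elovl5 went the other way, to 39.3 and 39.4 from 42.7 and 42.9 (log2 fold change -0.12, adjusted p = 0.016). Elovl5 was the only member of its branch lower at 18 h, a share under the 18.7% of all genes tested. The calls of Fasn, Scd1 and Elovl5 each ended without any 1 of the water or 18 h libraries. Those of Fasn and Elovl5 also ended with a common sum over all loci, and that of Elovl5 with a common sum over protein-coding genes. Elovl6 did not pass by limma (log2 fold change 0.14, adjusted p = 0.051) but passed as higher in 9 other settings.

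Among the 6 regulators, 2 were higher at 18 h than in water, beside 13.2% of all genes tested. Stard4 was at 38.4 and 39.5 FPKM against 30.3 and 31.5 in water (log2 fold change 0.32, adjusted p = 0.0018). Srebf2 was at 22.4 and 22.0 against 18.2 and 19.3 (log2 fold change 0.23, adjusted p = 0.00997). Both rose, and neither gene's groups overlapped. Insig1, at 159 and 163 against 173 and 167, did not pass the test (adjusted p = 0.14). Srebf1 was at 55.7 and 50.8, with an adjusted p of 0.069.

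The 11 sterol calls at 18 h became 7 without water 1, 7 without water 2, 6 without the first 18 h library and 7 without the second, and 6 with a common FPKM sum over all loci. The 6 fatty acid calls became 3, 2, 3 and 2 without these libraries, and the 2 regulators became 1 without water 1 or without 18 h EGF 1. The split of 1437 higher and 2030 lower genes became 1851 and 1618 with median-ratio scaling, 1189 and 705 with a common sum and 2032 and 1374 with a common sum over protein-coding genes. Under these scalings 10, 6 and 9 of 18 sterol genes were lower and 0 higher.

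**Figure D3:**
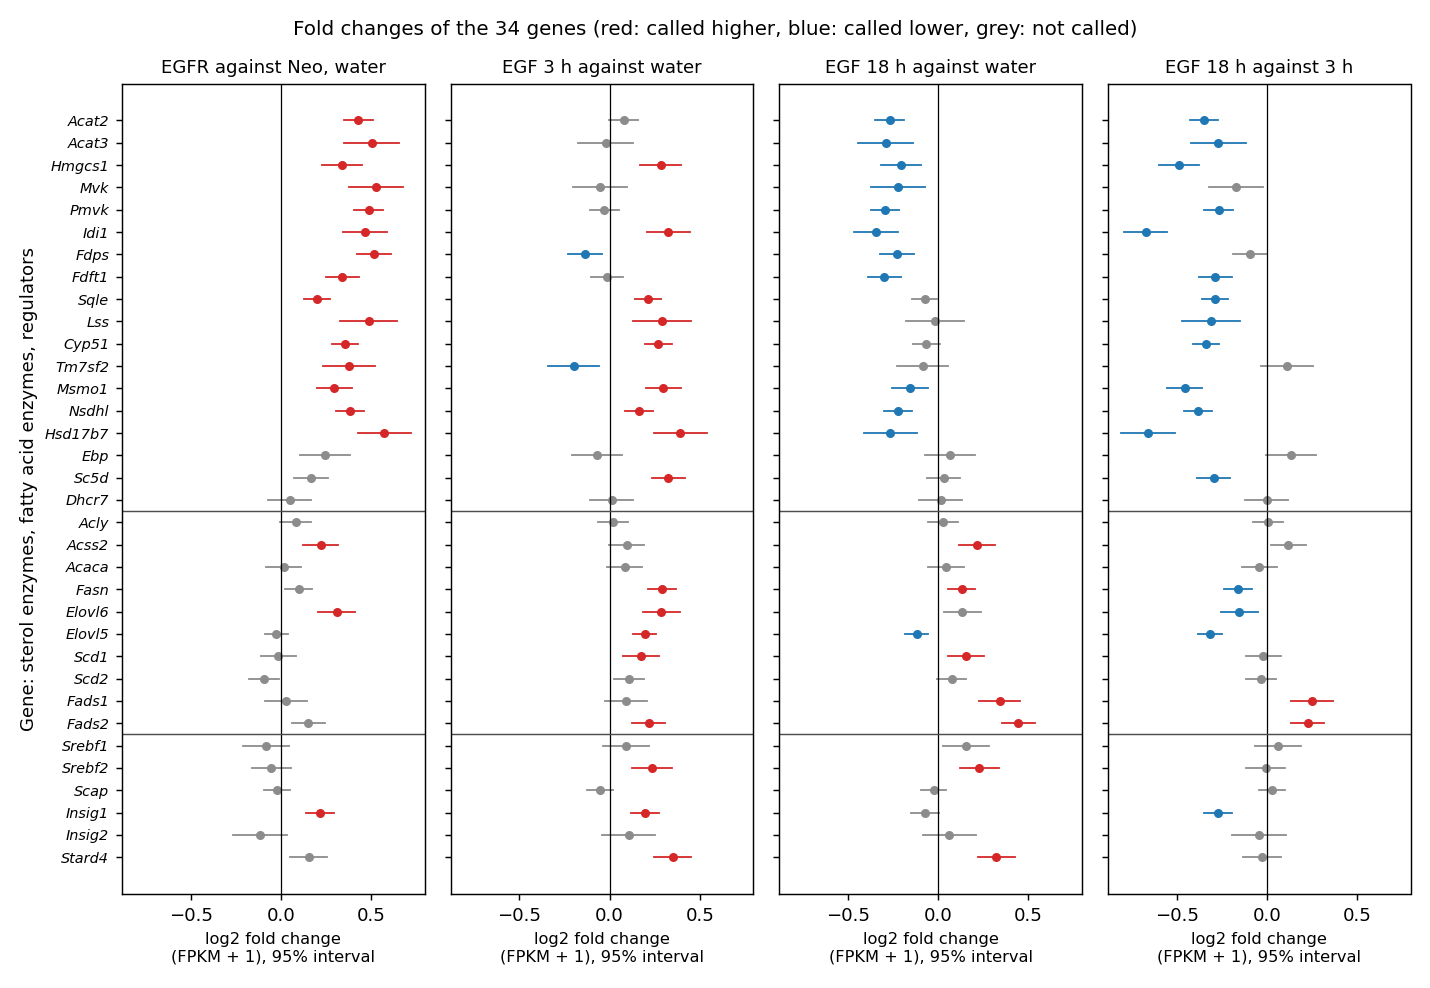
Log2 fold changes on the scale of log2(FPKM + 1) (x axes) of the 34 genes (y axis, sterol enzymes, fatty acid enzymes and regulators from top to bottom) in 4 comparisons; bars are 95% intervals from limma, red is called higher, blue lower and grey not called. Most sterol enzymes are red in the first panel, mixed in the second and mostly blue in the last 2 panels, while Fads1 and Fads2 are red in both 18 h panels.

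Set directly against 3 h, the 18 h libraries were lower across the sterol branch. Of 18 genes 13 were lower and none higher, beside 1741 lower genes (16.0%) and 1922 higher genes (17.7%) of all tested by limma; at an unadjusted p below 0.05, 14 were lower and 0 higher. The median log2 fold change was -0.29, beside 0.01 for all genes. Leaving out any 1 library left 11 to 15 sterol calls. Water libraries enter this comparison only through the spread that the groups share. Elovl6, below, lost its call without water 1 or water 2, and also without 3 h EGF 1 or either 18 h library. Its call by limma ended as well with only the 2 groups in the fit (adjusted p = 0.073) and without the filter (adjusted p = 0.053).

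Idi1 went from 107 and 102 FPKM at 3 h to 64.5 and 65.7 at 18 h (log2 fold change -0.67, SE 0.051, adjusted p = 0.000295). Hsd17b7 went from 23.0 and 22.5 to 13.6 and 14.5 (log2 fold change -0.66, SE 0.063, adjusted p = 0.00069). Hmgcs1 and Msmo1 followed, with log2 fold changes of -0.49 and -0.46. The 5 sterol genes that did not pass were Mvk, Fdps, Tm7sf2, Ebp and Dhcr7. Among them Ebp and Tm7sf2 had positive estimates, 0.14 and 0.11 (adjusted p = 0.12 and 0.19).

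Of the fatty acid genes, 3 of 10 were lower at 18 h than at 3 h and 2 were higher, beside 16.0% and 17.7% of all genes tested. Elovl5 went from 49.4 and 49.0 FPKM to 39.3 and 39.4 (log2 fold change -0.31, SE 0.028, adjusted p = 0.000504), and Fasn from 92.1 and 96.3 to 84.8 and 83.5. Elovl6 was the other that fell, at 19.4 and 19.1 (adjusted p = 0.034). Fads1 rose from 65.7 and 68.3 to 81.0 and 78.7 and Fads2 from 126 and 133 to 154 and 151, with log2 fold changes of 0.25 and 0.23. Insig1 fell from 192 and 197 to 159 and 163 (log2 fold change -0.27, adjusted p = 0.0017) and was the 1 regulator called, while Stard4 and Srebf2 had 95% intervals of -0.13 to 0.08 and -0.12 to 0.10. The 5 fatty acid calls became 3 when either 18 h library was left out. With a common FPKM sum, 863 genes were higher and 1331 lower, against 1922 and 1741.

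The 18 h libraries were also set against Neo in water. This comparison was added after values had been seen, and the line, EGF and time differ together in it and cannot be told apart. Of 18 sterol genes 14 were higher at 18 h than in Neo and none lower, beside 1510 higher genes (13.9%) and 1784 lower genes (16.4%) of all tested by limma; at an unadjusted p below 0.05, 16 were higher and 0 lower. The largest difference was that of Lss, at 71.7 and 68.7 FPKM against 52.1 and 48.9 (log2 fold change 0.47, SE 0.068, adjusted p = 0.0024). Fdft1 was at 32.5 and 31.5 against 31.4 and 30.7, with a 95% interval of -0.05 to 0.13 for the log2 fold change. Hmgcs1 and Idi1 did not pass either (adjusted p = 0.075 and 0.11), although both 18 h libraries lay above both Neo libraries.

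Of 10 fatty acid genes 6 were higher than in Neo and 1 lower, and of 6 regulators 3 were higher. The shares of all genes tested were 13.9% higher and 16.4% lower. Fads2 was at 154 and 151 FPKM against 102 and 98.3 (log2 fold change 0.60, SE 0.039, adjusted p = 6.3e-05). Stard4 was at 38.4 and 39.5 against 28.7 and 26.7, Elovl6 at 19.4 and 19.1 against 14.1 and 13.7, and Acss2 at 16.0 and 16.5 against 11.7 and 11.8. All 4 were higher by log2 fold changes of 0.43 to 0.60. Elovl5 was the lower one, at 39.3 and 39.4 against 43.8 and 43.4 (adjusted p = 0.0076), and its call ended with a common sum over all loci (adjusted p = 0.75) and without 18 h EGF 1 (adjusted p = 0.053). The 14 sterol calls became 9 without Neo 2, 9 without the first 18 h library and 5 without the second, and the 3 regulators became 1 when any 1 of these libraries was left out. Over all genes the split of 1510 and 1784 became 2425 and 409 with a common sum and 1904 and 1387 with a common sum over protein-coding genes.

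**Figure D4:**
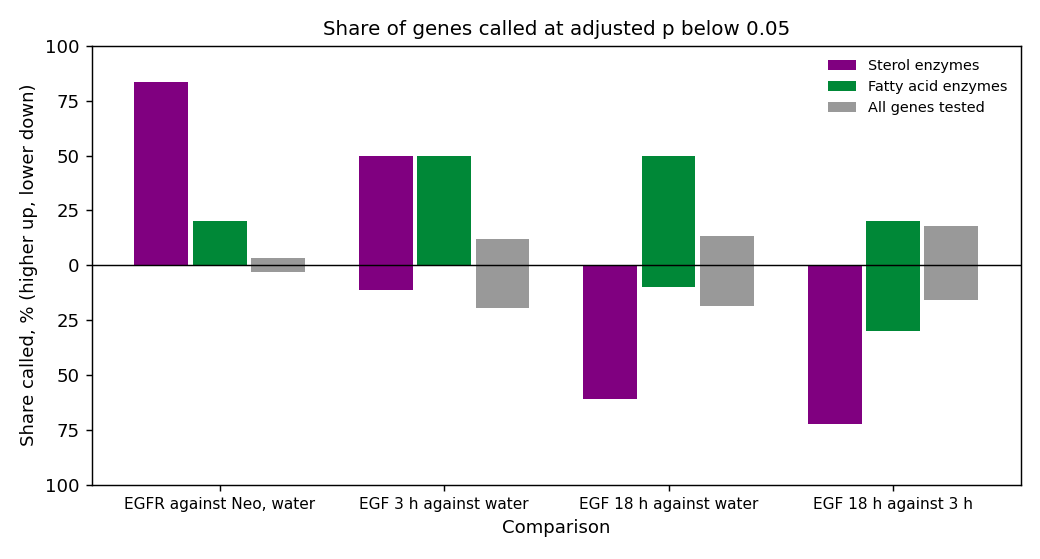
Share of genes called at an adjusted p below 0.05 (y axis, %, higher above 0 and lower below it) in 4 comparisons (x axis) for sterol enzymes (18), fatty acid enzymes (10) and all 10874 genes tested. The sterol bar reaches highest for EGFR against Neo, where 15 of 18 genes are higher, and lowest for 18 h against 3 h, where 13 of 18 are lower.

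With the settings reported here, limma called Dhcr7, Srebf1, Scap, Insig2, Acly, Acaca and Scd2 in none of the 5 comparisons, and the lowest of their adjusted p-values was 0.055, that of Scd2 at 3 h. Other settings called some of them: Scd2 was higher at 3 h in 5 settings and at 18 h in 3, Srebf1 at 18 h in 7, Acly against Neo in 7 and at 18 h against water in 1, Acaca at 3 h in 2 and Dhcr7 against Neo in 1. Scap spanned only 43.3 to 46.5 FPKM over the 8 libraries, and Dhcr7 only 18.0 to 20.3. Insig2, at 16.8 to 19.5 FPKM, was at a fraction of Insig1, which ran from 145 to 197 FPKM. Srebf1 at 47.5 to 55.7 FPKM exceeded Srebf2 at 18.2 to 22.4 FPKM in every library.

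Parts of some transcripts match other genes closely, and the sources used here do not say how the authors' counting treated such reads. Stretches of at least 200 bases with at least 95% identity to another gene covered 65.6% of the longest Acat2 transcript and 74.9% of that of Acat3. These 2 genes share sequence with each other and with Tcp1. Such stretches covered 33.3% for Idi1, 54.7% for Fdft1 and 64.3% for Acaca, where Ctsb or genes with Gm names match. Exons of other genes overlapped 26.7% of the exon bases of Fdps and 23.5% of those of Acat3. The values of these 6 genes are uncertain in source to that extent.

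Further lists held genes that supply, process or use these lipids. Over all genes tested, 11.8% were higher and 19.7% lower at 3 h, 13.2% and 18.7% at 18 h, 17.7% and 16.0% at 18 h against 3 h, and 3.11% and 2.9% between the lines; list counts near these shares are no result about the list. Of 12 genes of mitochondrial fatty acid oxidation, 9 were lower and none higher at 3 h, with a median log2 fold change of -0.16; by limma at an unadjusted p below 0.05, 10 were lower and 0 higher. Hadhb, of the trifunctional protein, was at 66.7 and 67.1 FPKM in water and 57.5 and 59.2 at 3 h (log2 fold change -0.19, adjusted p = 0.0042). Cpt2, which re-forms acyl-CoA in mitochondria, was at 7.06 and 6.99 against 5.38 and 5.78, and Acadvl, a long-chain dehydrogenase, was also lower. The 9 became 7, 0, 6 and 8 under median-ratio, common-sum, coding-sum and quantile scaling.

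Of 20 genes for fatty acid activation and glycerolipid synthesis, 6 were higher at 3 h and 1 lower, which became 9 and 0 with median-ratio scaling, 10 and 0 with the coding sum and 8 and 0 with quantile scaling. Chka, choline kinase, was at 19.4 and 20.6 FPKM in water and 29.4 and 29.7 at 3 h (log2 fold change 0.54, adjusted p = 0.00056). Acsl4, which activates polyunsaturated fatty acids, was at 24.5 and 24.0 against 35.4 and 32.8, and Dgat2, which makes triglyceride, at 16.9 and 16.8 against 22.9 and 22.8. At 18 h 5 of the 20 were higher than in water and 1 lower, which became 8 and 0 with the coding sum and 8 and 1 with quantile scaling. The calls were led by Elovl1, at 25.1 and 25.1 against 17.9 and 19.3, Acsl3 and Elovl7. Against 3 h, 2 were higher and 6 lower, and Acsl4, at 24.3 and 24.5 FPKM, Chka, at 23.4 and 22.0, and Pcyt1a were among the lower ones. In the EGFR line in water 2 of the 20 were higher, Pcyt2 and Acsl5, and 0 lower by limma (1 lower at an unadjusted p below 0.05).

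Of the 12 fatty acid oxidation genes, 3 were lower at 18 h than in water (Hadhb, Etfdh and Etfa), a share near that of all genes. Against 3 h, 4 were higher, among them Acadm and Cpt2, and 3 lower, among them Etfa, and with a common sum 2 and 2. Of 9 genes of sterol esterification, transport and efflux, 1 was lower at 3 h (Nr1h2; 0 with the common or the coding sum), and 4 were higher at 18 h than in water. Gramd1a, a sterol carrier at membrane contacts, was at 18.2 and 18.3 FPKM in water and 27.9 and 25.1 at 18 h (log2 fold change 0.51, adjusted p = 0.0022), and Osbpl2 and Npc1 were also higher. Against 3 h 4 of the 9 were higher, led by Osbpl2, Gramd1a and Gramd1b, and with a common sum 2.

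NADPH and citrate supply, 12 genes, had 2 higher and 3 lower at 3 h and 2 higher and 2 lower at 18 h, shares near those of all genes. With a common sum the 3 h counts were 2 and 0 and the 18 h counts 1 and 1. Mid1ip1, an activator of acetyl-CoA carboxylase, was at 67.0 and 62.2 FPKM in water and 83.2 and 81.0 at 3 h, while the dehydrogenase Idh2 went from 112 and 111 to 93.2 and 97.0 and Pgls, of the pentose phosphate pathway, from 117 and 112 to 91.2 and 98.1. Between 3 h and 18 h only Mid1ip1 changed, and it was lower. Between the lines Idh1 and Mid1ip1 were higher, against 1 gene of the list under each of the 4 other scalings, and Me1, malic enzyme, was lower at 25.7 and 24.8 in EGFR water against 33.2 and 32.4 in Neo (log2 fold change -0.37, adjusted p = 0.0024).

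Of 8 genes that process SREBP or control it in the endoplasmic reticulum, 1 was higher (Erlin1) and 1 lower (Mbtps1, the Golgi protease of SREBP) at 3 h, 1 was higher at 18 h (Tmem97), and Mbtps1 was higher and Erlin1 lower at 18 h than at 3 h. Under the 4 other scalings 2 or 3 were higher and 0 lower at 3 h, so the Mbtps1 call ended, and 1 to 4 were higher at 18 h. Of 12 genes of isoprenoid side branches, Zmpste24 rose and Coq2, of ubiquinone synthesis, fell at 3 h; these counts of 1 and 1 became 5 and 1 with median-ratio scaling and 5 and 0 with the coding sum. Coq2 fell further, to 25.8 and 27.5 FPKM at 18 h from 35.4 and 35.2 in water (log2 fold change -0.40, adjusted p = 0.00029), and it and Pdss1 were the 2 that were lower at 18 h than at 3 h. Between the lines only Icmt of these 12 was called, higher, and not with the coding sum. SREBP processing, sterol transport and fatty acid oxidation genes had 0 calls between the lines by limma, with 4 of 8, 2 of 9 and 1 of 12 at an unadjusted p below 0.05; Tmem97, Osbpl2 and Etfb, the most abundant of each list, had log2 fold changes of 0.13, -0.11 and 0.09.

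From Neo to 18 h of EGF, counts for these lists were 2 higher and 1 lower of 12 for isoprenoid side branches, 2 and 0 of 8 for SREBP processing, and 2 and 0 of 9 for sterol transport. They were 3 and 3 of 12 for NADPH and citrate supply, 6 and 1 of 20 for fatty acid activation and 1 and 3 of 12 for fatty acid oxidation. Of all genes 13.9% were higher and 16.4% lower, and most of these list counts are near those shares. With a common sum, isoprenoid side branches had 4 higher, sterol transport 4 higher, NADPH and citrate supply 0 lower and fatty acid oxidation 2 higher and 1 lower. Elovl1, an elongase of saturated chains, was at 17.9 and 17.4 FPKM in Neo and 25.1 and 25.1 at 18 h. Hadhb was at 65.3 and 66.1 in Neo and 53.5 and 54.6 at 18 h.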

How the data were processed

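RNA from 8 libraries of AtT-20 cells was purified on columns and copied to cDNA with Superscript III, per the labels' protocols. The authors deposited 1 FPKM table for each library on mm10. Per the submitters' processing notes, Trimmomatic 0.22, TopHat2 2.0.8, HTSeq 0.5.4 and DESeq were used. The sources used here do not give the program that made the FPKM values, the rule that chose the loci or the library depths. FPKM divides by gene length and library total, so a few abundant RNAs can shift all other genes of a library.

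Loci that reached FPKM 1 in 2 or more libraries (10874 of 12193) were tested with limma 3.58.1 in R 4.3.3 on log2(FPKM + 1) of the deposited values, with a variance trend, all 4 groups in 1 fit and 4 residual degrees of freedom. Benjamini-Hochberg adjustment ran over all genes tested, with a threshold of 0.05. The scripts were tested on simulated data. Tables, figures and transcript matches used Python 3.11.15, pandas 2.3.3, NumPy 2.4.6, matplotlib 3.10.9 and minimap2 2.31.

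Alternatives were the pseudocount, the filter, 4 scalings, the groups in the fit, the variance trend, a replicate block, protein-coding genes only, a threshold of 0.01 and leaving out each library. All members with a row are named; of each of the 6 further lists, up to 3 called genes with the lowest adjusted p are named, or the most abundant gene where none was called, and Egfr is given as the check of the lines. The members, the lists and the tests were chosen with earlier results of these data known. The comparison of 18 h EGF with Neo, the split of the sterol branch and the crossed pairing were chosen after seeing the data. Same-numbered libraries were not treated as pairs.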

Additional observations from a re-analysis of the deposited data

Results flagged for a closer look

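EGF effects at 18 h and at 3 h differed by direct test (limma, adjusted p below 0.05) for 19 of the 34 genes. Of all genes tested, 17.7% were higher and 16.0% lower at 18 h than at 3 h. The 2 of 10 fatty acid genes that were higher and the 1 of 6 regulators that was lower are near these shares. Each difference is given as the log2 fold change of 18 h minus that of 3 h. In the sterol branch the differences were -0.67 for Idi1, -0.66 for Hsd17b7, -0.49 for Hmgcs1, -0.46 for Msmo1 and -0.38 for Nsdhl. They were -0.35 for Acat2, -0.34 for Cyp51, -0.31 for Lss, -0.30 for Sc5d and -0.29 for both Sqle and Fdft1. For Pmvk and Acat3 both were -0.27. Insig1, the regulator, was at -0.27.

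In the fatty acid branch the differences were -0.31 for Elovl5, -0.16 for Fasn and -0.15 for Elovl6. Those of Fads1 and Fads2 were positive, at 0.25 and 0.23. Fads1 and Fads2 thus had a higher EGF log2 fold change at the later time, while the other 17 genes had a lower one. Lower does not always mean a smaller change. Pmvk was at -0.03 at 3 h and -0.30 at 18 h, and Fdft1 at -0.01 and -0.30, while Sc5d was at 0.33 and 0.03. The time in culture and the time with EGF cannot be told apart in any of these differences.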

How the results depend on the processing

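Of 248 member and gene counts under other settings, 223 stayed within 1.5 times the reported count. Counts from leaving out a library are not among the 248 and are given below as ranges. No called member changed sign under any setting, leaving out a library included. Between the lines, 653 called genes became 412 with a common sum over all loci, 237 with only the compared groups in the fit, 382 with the replicate block, 113 at a threshold of 0.01 and 85 to 689 leaving out 1 library. The 15 sterol calls became 7 to 16 leaving out 1 library. The 2 fatty acid calls became 1 without a filter, 1 with only the compared groups, 1 with the replicate block, 0 at 0.01 and 0 to 2 leaving out 1 library, and the 1 regulator became 2, 0 and 0 to 1 with a common sum, at 0.01 and leaving out 1 library. At 3 h, 3425 genes became 1786 with a common sum, 1377 at 0.01 and 1445 to 3356 leaving out 1 library. The 11 sterol calls became 7 at 0.01 and 7 to 11, and the 5 fatty acid calls 8 with median-ratio scaling, 9 with a common coding sum and 3 to 5. At 18 h, 3467 genes became 1894 with a common sum, 1739 at 0.01 and 1795 to 3609. The 11 sterol calls became 6, 6 and 6 to 11 in the same order, the 6 fatty acid calls 3 at 0.01 and 2 to 7, and the 2 regulators 1 to 3. For 18 h against 3 h, 3663 genes became 2194 with a common sum, 1666 at 0.01 and 1877 to 3645, and the 5 fatty acid calls 3 to 5. For 18 h against Neo, 3294 genes became 1649 at 0.01 and 1835 to 3404, the 14 sterol calls 6 and 5 to 14, and the 3 regulators 1 and 1 to 3. Why these counts moved was not tested. Calls of members held under every setting for 7 of 18 between the lines, 11 of 19 at 3 h, 8 of 19 at 18 h, 13 of 19 for 18 h against 3 h and 10 of 24 for 18 h against Neo. The replicate block moved no other count by over 1.5 times. Same-numbered libraries did not deviate together throughout: the correlation of their deviations was -0.172 between the lines, 0.0006 and -0.0593 at 3 h and 18 h and -0.108 for 18 h against 3 h, beside 0.31 for 18 h against Neo, so the numbers were not used for pairing. Crossed pairing, added after seeing the data, gave 503 genes between the lines and 2992 for 18 h against 3 h. Depth limits are unknown because the files hold FPKM alone.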
